A study of Mus musculus with 8 samples.

Results

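The genes of the spindle assembly checkpoint were described as a set of 10 genes, *Mad1l1*, *Mad2l1*, *Bub1*, *Bub1b*, *Bub3*, *Ttk*, *Trip13*, *Zw10*, *Zwilch* and *Knl1*, in mouse oocytes that matured with or without overexpressed BTG4. They were chosen by name, and each was found under its current symbol among the 15962 genes listed in all 8 expression tables. All 10 were also among the 13968 genes tested, which reached at least 1 TPM (a gene's share of the library's RNA after division by gene length) in at least 2 libraries.

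Polyadenylated RNA was profiled in 8 Smart-seq2 libraries of 15 pooled oocytes each, 2 libraries per group, from superovulated ICR females aged 6 weeks. The groups were GV oocytes (germinal vesicle stage, held in meiotic prophase), MII oocytes (held in metaphase of the second division), and MII oocytes labelled Btg4wt or Btg4tm. The GV and MII oocytes were uninjected, came from in vitro culture and carried the treatment label WT. Btg4wt oocytes were injected with cRNA for wild-type BTG4, and Btg4tm oocytes with cRNA for a mutant in which a threonine and its neighbouring serines, studied as phosphorylation sites, were changed to alanine. The labels name no deletion of *Btg4* in any group, and no vector-injected control was among these libraries. *Btg4*, the injected gene, was at 2650 and 2790 scaled TPM (TPM divided by a library scale factor) in GV oocytes, 5790 and 6000 in MII, 5180 and 5510 in Btg4wt, and 3730 and 4070 in Btg4tm. The injected libraries therefore did not stand above MII for this RNA. The study showed overexpressed wild-type and mutant BTG4 protein by immunoblot, and reported that endogenous BTG4 seemed reduced with either. TPM per gene symbol do not separate the injected cRNA from the oocyte's own *Btg4* RNA.

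The spindle assembly checkpoint holds a dividing cell in metaphase until every chromosome is attached to the spindle. Unattached kinetochores recruit the kinase MPS1 (*Ttk*), which phosphorylates KNL1; BUB1 and BUB3 dock there, the MAD1-MAD2 complex follows, and soluble MAD2 joins BUBR1 (*Bub1b*), BUB3 and CDC20 in a complex that blocks the anaphase-promoting complex. A fully grown oocyte makes almost no new RNA, so its supply of these proteins rests on stored maternal RNA, which is deadenylated and degraded or, for dormant RNAs with cytoplasmic polyadenylation elements, given a longer tail during maturation. BTG4 is an adaptor that brings the CCR4-NOT deadenylase to maternal RNA.

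The 3′ ends of the members are shown because the oligo(dT) primer of these libraries starts at the poly(A) tail. In the GENCODE M21 annotation of GRCm38, the build of the files in an earlier release, the last 100 bases of each annotated coding transcript were searched on the transcript strand. The motifs were the cytoplasmic polyadenylation elements TTTTAT and TTTTAAT and the polyadenylation hexamers AATAAA and ATTAAA, each counted on its own where they overlapped. Among 10254 tested genes with a complete coding transcript and a 3′ UTR of at least that length, 20% held either element, 80.5% either hexamer and 16.7% both. *Bub1b* held TTTTAT 59 and 27 bases from the end of its only coding transcript, and *Mad2l1* held TTTTAAT 12 bases from the end of its shorter transcript but neither motif at the end of the longer one. The other 8 members held neither element in any such window. The windows below, all in 3′ UTRs, belong to the most abundant members, which were higher in MII than in GV unless scaled to mitochondrial RNA, and to *Ttk* and *Mad1l1*, which were lower, with the motifs in capitals.
Mad2l1 (chr6:66540961-66540990, plus strand): ctgtAATAAAgaactcttaTTTTAATgttt
Bub1b (chr2:118641556-118641585, plus strand): cactgtgtaTTTTATAATAAAatagttttt
Ttk (chr9:83872349-83872378, plus strand): aagagctctgtaAATAAAgcgtcaccacag
Mad1l1 (chr5:140008703-140008732, minus strand): tcagactaatgaAATAAAgtgctaccttta
A match is a string of letters and not a shown site of binding. *Knl1*, which was also higher in MII, held neither motif in the last 100 bases of its main transcript, and ATTAAA 23 bases from the end of a shorter one.

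*Mad2l1* (ENSMUSG00000029910.14) lies on chromosome 6 from 66535390 to 66547220, *Bub1b* (ENSMUSG00000040084.9) on chromosome 2 from 118598211 to 118641591, *Knl1* (ENSMUSG00000027326.13) on chromosome 2 from 119047119 to 119105501, *Ttk* (ENSMUSG00000038379.15) on chromosome 9 from 83834689 to 83872389, and *Zw10* (ENSMUSG00000032264.9) on chromosome 9 from 49055613 to 49078775. The longer *Mad2l1* transcript has 7557 bases, of which 6802 are 3′ UTR, and the gene length used for its TPM is not given in the sources used here. Because reads were counted without regard to strand, *Zwilch*, with 5.93% of its exonic bases under the opposite gene *Lctl*, and *Mad1l1*, with 1.01% under *Gm16121*, may hold reads of those genes. Stretches of 50 bases shared with other genes covered 3.46% of the longest *Bub3* transcript, 2.24% of that of *Mad2l1* and 1.81% of that of *Knl1*.

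Across genes, replicate libraries correlated on the log2 scale with a Pearson r between 0.982 and 0.987. All 10 oocyte markers were listed in every table. Of 12 cumulus and granulosa markers, 4 were in all tables (*Lhcgr*, *Cyp19a1*, *Ptgs2* and *Kitl*), with a summed level of 18.5 and 19.9 scaled TPM in GV, 30.8 and 32.8 in MII, 29.5 and 26 in Btg4wt and 22.5 and 21.5 in Btg4tm; *Fshr* and *Cyp11a1* were listed in the tables of the injected oocytes only, and the other 6, among them *Foxl2* and *Amh*, which define granulosa cells, in none. Mitochondrially encoded RNAs took 0.626% and 0.652% of TPM in GV, 2.71% and 2.6% in MII, 2.05% and 1.75% in Btg4wt and 0.765% and 1.02% in Btg4tm. Both measures moved with the groups, and their part in the results was not tested. Most of the marker sum was *Cyp19a1*, at 15.75 and 17.31 scaled TPM in GV and 25.4 and 26.78 in MII. It was at 23.42 and 20.52 in Btg4wt and 19.2 and 17.96 in Btg4tm. *Lhcgr* and *Ptgs2* reached at most 0.31 and 0.61 in any library. TPM keep no sequencing depth, and more RNA and a longer poly(A) tail cannot be told apart in libraries primed on the tail.

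Checkpoint RNAs differed widely in abundance, and the order of their levels shifted with maturation. TPM are per length, but the lengths behind them are not given, so each gene's place in the order depends on them, above all that of *Mad2l1* with its long and short transcripts. In GV oocytes, *Bub1b* led with a mean of 544 scaled TPM (SD 7.25, n = 2), followed by *Mad2l1* at 189 (SD 16.2) and *Ttk* at 166 (SD 26.6), whose libraries overlapped. *Bub3* (133), *Bub1* (79.4), *Zw10* (60.1), *Mad1l1* (34), *Zwilch* (17.9), *Knl1* (14.9) and *Trip13* (6.85) came next, each without overlap with its neighbours. In MII oocytes *Bub1b* (881) and *Mad2l1* (457) stood further above the rest, *Ttk* fell from the third place to the fourth and *Knl1* moved from the ninth to the seventh. The summed level of the 10 genes was 1280 and 1210 scaled TPM in GV, 1760 and 1720 in MII, 1700 and 1530 in Btg4wt, and 1410 and 1220 in Btg4tm. *Bub1b* and *Mad2l1* made up 57.5% and 60.3% of that sum, which rests on the same lengths, in GV and 76.9% and 76.6% in MII, against 73.6% and 72.1% in Btg4wt and 65.4% and 65.6% in Btg4tm.

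**Figure D1:**
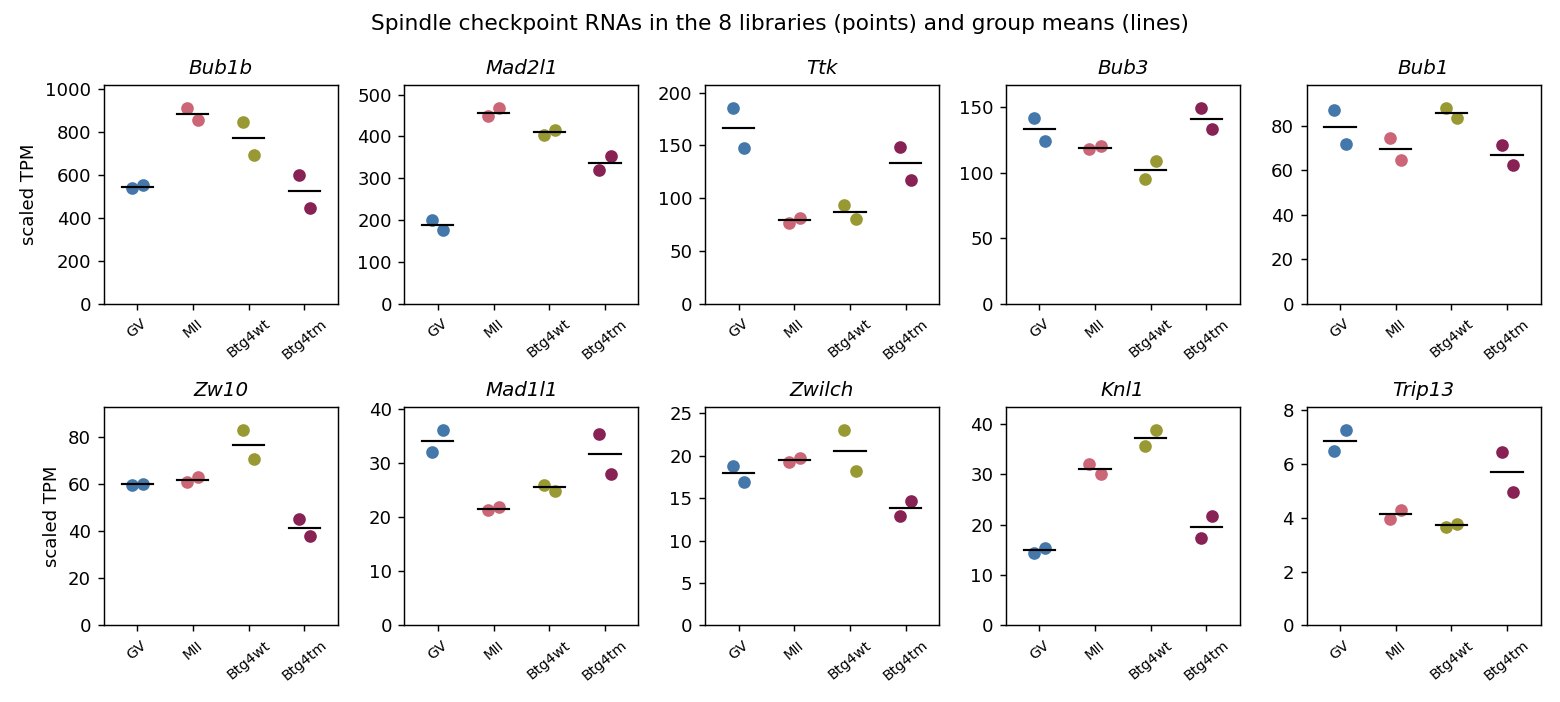
Scaled TPM (linear axes from 0, one panel per gene) of the 10 checkpoint genes in GV, MII, Btg4wt and Btg4tm oocytes; points are the 2 libraries of a group and lines their mean. Both MII libraries of *Mad2l1* (448 and 467) lie above both GV libraries (200 and 177), while those of *Ttk* (76.8 and 80.7) lie below (185 and 147).

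The first comparison asked which checkpoint RNAs were higher or lower after maturation of uninjected oocytes. Between GV and MII, *Mad2l1*, *Knl1* and *Bub1b* were higher and *Ttk*, *Mad1l1* and *Trip13* lower at an adjusted p under 0.05, and *Bub1*, *Bub3*, *Zw10* and *Zwilch* did not pass, while all 10 were lower when scaled to mitochondrial RNA. Of the 10 genes, 3 rose and 3 fell by that rule, beside 29.8% and 32.8% of all tested genes. With a change of more than 1 on the log2 scale also required (below, called), 2 were higher and 1 lower, beside 12.5% and 24.0% of all genes. The median log2 difference of the 10 was -0.06, against 0 for all genes. Each difference is MII minus GV in log2(scaled TPM + 1), a scale that understates the change of low genes, with its SE and the Benjamini-Hochberg adjusted p from limma across all tested genes. An exact permutation test of 2 libraries against 2 cannot go below a two-sided p of 0.333, so these p-values rest on limma's pooled spread. Nothing in the labels says that the libraries came from separate animals, and the p-values then measure the spread between these libraries only.

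*Mad2l1* encodes MAD2, the protein that unattached kinetochores convert into the inhibitor of CDC20. Its level was 200 and 177 scaled TPM in GV and 448 and 467 in MII, a log2 difference of 1.28 (SE 0.1, adjusted p = 1.7e-05), that is 2.42-fold. Both MII libraries were above both GV libraries, and the call held without any single library. *Mad1l1* encodes MAD1, the kinetochore-bound partner that MAD2 needs for its conversion. It went the other way, from 32 and 36.1 scaled TPM in GV to 21.3 and 21.9 in MII (log2 difference -0.63, SE 0.15, adjusted p = 0.0055). The partners thus moved apart: the ratio of *Mad2l1* to *Mad1l1* TPM within a library, which a single scale factor per library leaves as it is, was 6.25 and 4.91 in GV and 21 and 21.3 in MII. *Trip13*, the ATPase that takes MAD2 out of its closed form, was the least abundant member, at 6.46 and 7.25 scaled TPM in GV and 3.94 and 4.3 in MII (log2 difference -0.62, SE 0.19, adjusted p = 0.022). Its pass was lost without any one of the GV or MII libraries (adjusted p of 0.054 to 0.11) and under quantile normalization (0.27).

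*Bub1b* encodes BUBR1, the MAD2 partner in the inhibitory complex, which also steadies the attachment of microtubules. It rose from 539 and 550 scaled TPM to 908 and 853 (log2 difference 0.69, SE 0.15, adjusted p = 0.0044), a 1.62-fold change that stayed under the limit for a call. Its paralogue *Bub1*, the kinase that marks centromeric chromatin for cohesin protection, was at 87 and 71.8 in GV and 74.5 and 64.8 in MII. These ranges overlapped, and the log2 difference of -0.18 did not pass (95% interval -0.49 to 0.13, adjusted p = 0.27). The ratio of *Bub1b* to *Bub1* within a library went from 6.2 and 7.66 in GV to 12.2 and 13.2 in MII. *Bub3*, the WD40 protein that carries both paralogues to kinetochores, was at 142 and 124 scaled TPM in GV and 118 and 120 in MII (log2 difference -0.16, 95% interval -0.43 to 0.11, adjusted p = 0.27).

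*Ttk*, the kinase MPS1 at the head of the pathway, was the one member called lower. It stood at 185 and 147 scaled TPM in GV and 76.8 and 80.7 in MII, a log2 difference of -1.06 (SE 0.16, adjusted p = 5e-04), or 2.08-fold lower. The ratio of *Ttk* to *Bub1* was 2.13 and 2.05 in GV oocytes against 1.03 and 1.25 after maturation. *Knl1*, the kinetochore scaffold that MPS1 phosphorylates, moved in the opposite direction, from 14.3 and 15.4 to 32.1 and 30 scaled TPM (log2 difference 1.01, SE 0.15, adjusted p = 0.00042). Both differences lay next to the limit of 1, and without GV replicate 1 neither reached it (-0.89 for *Ttk* and 0.96 for *Knl1*), which left 1 called member, although both kept an adjusted p under 0.05. *Knl1* was likewise at 0.98 without MII replicate 1 and 0.86 in TPM as deposited, and *Ttk* at -0.87 under quantile normalization.

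*Zw10* and *Zwilch* encode subunits of the RZZ complex, which builds the outer corona of the kinetochore and brings in MAD1-MAD2 and dynein. *Zw10* was level, at 59.8 and 60.3 scaled TPM in GV and 60.8 and 63.1 in MII, with a log2 difference of 0.04 and a 95% interval of -0.25 to 0.34 (adjusted p = 0.78). *Zwilch* was at 18.8 and 16.9 in GV and 19.3 and 19.7 in MII (log2 difference 0.12, 95% interval -0.24 to 0.49, adjusted p = 0.52). The intervals include 0 but do not show that the stages were equal.

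Scaling mattered for these directions. Scaled to the mitochondrially encoded genes, the median of all genes moved by -1.74 between GV and MII and all 10 members were lower in MII, *Mad2l1* by -0.93 and *Knl1* by -1.1. Of all 13968 genes, 11403 were called lower and 7 higher in that scaling. Relative to that median the passing members kept their signs. *Mad2l1* was at 0.81, *Knl1* at 0.64, *Bub1b* at 0.22, *Mad1l1* at -1.02, *Trip13* at -0.71 and *Ttk* at -1.51. A single factor per library moves all genes alike, apart from the 1 added before the logarithm. These signs were therefore largely set in advance and are no separate support. *Zw10* and *Zwilch*, which did not pass under the main scaling, turned from 0.04 and 0.12 to -0.4 and -0.24 relative to the median. The statements above are therefore about levels relative to the other RNAs of the oocyte, and not about molecules per oocyte.

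The second comparison asked what changed when the injected BTG4 carried alanine in place of the threonine and its neighbouring serines. Between Btg4tm and Btg4wt oocytes, *Knl1*, *Zw10*, *Bub1b*, *Zwilch* and *Mad2l1* were lower and *Ttk* and *Bub3* higher with Btg4tm at an adjusted p under 0.05, while all 10 values were above 0 and 6 passed when scaled to mitochondrial RNA. These were 5 lower and 2 higher members, beside 23.3% and 26.2% of all tested genes. None changed by more than 1 on the log2 scale, whereas 7.94% of all genes were called lower and 18.1% higher; 9 of the 10 had an unadjusted p under 0.05 in limma, beside 55.5% of all genes. The median log2 difference of the members was -0.32, against 0.01 for all genes. Scaled to mitochondrial RNA, the median of all genes was 0.88, and 6089 of all 13968 genes were called higher and 69 lower.

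*Knl1* showed the largest difference of the 10, at 35.6 and 38.8 scaled TPM in Btg4wt and 17.4 and 21.7 in Btg4tm (log2 difference -0.9, SE 0.15, adjusted p = 0.0012), or 1.87-fold lower. *Zw10* followed, at 83 and 70.6 in Btg4wt and 45.1 and 37.9 in Btg4tm (log2 difference -0.87, SE 0.13, adjusted p = 0.00072). For both genes the libraries of the groups were well apart, and each passed in 16 of 17 alternative fits (other scalings, filters and models, and each library left out in turn), the exception being scaling to mitochondrial RNA (adjusted p = 0.57 for *Knl1* and 0.48 for *Zw10*). *Zwilch* was at 23 and 18.2 scaled TPM in Btg4wt and 12.9 and 14.7 in Btg4tm (log2 difference -0.54, SE 0.16, adjusted p = 0.021), and did not pass without Btg4wt replicate 1 (0.12) or Btg4tm replicate 1 (0.092).

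*Bub1b* stood at 846 and 690 scaled TPM in Btg4wt and 599 and 446 in Btg4tm, so the nearest libraries of the groups were closer than the replicates of either group. Its log2 difference was -0.56 (SE 0.15, adjusted p = 0.016), and it was -0.43 without Btg4wt replicate 1 (adjusted p = 0.096) and -0.35 without Btg4tm replicate 2 (0.072). *Mad2l1* was at 404 and 416 in Btg4wt and 320 and 353 in Btg4tm (log2 difference -0.29, SE 0.1, adjusted p = 0.046). This value was the smallest that passed, and it passed in 8 of 17 alternative fits, with adjusted p-values between 0.0049 and 0.16 where the sign was kept; scaled to mitochondrial RNA it was 0.8 (0.0037). *Bub1* was at 87.9 and 83.7 in Btg4wt and 71.3 and 62.4 in Btg4tm, where its log2 difference of -0.36 (SE 0.14, adjusted p = 0.058) did not pass.

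The members on the higher side in Btg4tm included *Ttk*, at 93.2 and 80.3 scaled TPM in Btg4wt and 148 and 117 in Btg4tm (log2 difference 0.6, SE 0.16, adjusted p = 0.013). *Bub3* was at 95.4 and 109 in Btg4wt and 149 and 133 in Btg4tm (log2 difference 0.46, SE 0.12, adjusted p = 0.012). Each passed in 14 of 17 alternative fits. *Ttk* did not pass without Btg4wt replicate 2 (0.086) or Btg4tm replicate 1 (0.073), *Bub3* without replicate 1 of Btg4wt (0.086) or Btg4tm (0.061), and neither under quantile normalization. *Mad1l1*, at 26 and 24.9 in Btg4wt and 35.3 and 28 in Btg4tm, gave a log2 difference of 0.3 (SE 0.15, adjusted p = 0.13). *Trip13*, at 3.67 and 3.77 in Btg4wt and 6.43 and 4.95 in Btg4tm, gave 0.49 (SE 0.19, adjusted p = 0.064). Neither passed, although their Btg4tm libraries lay above their Btg4wt libraries.

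**Figure D2:**
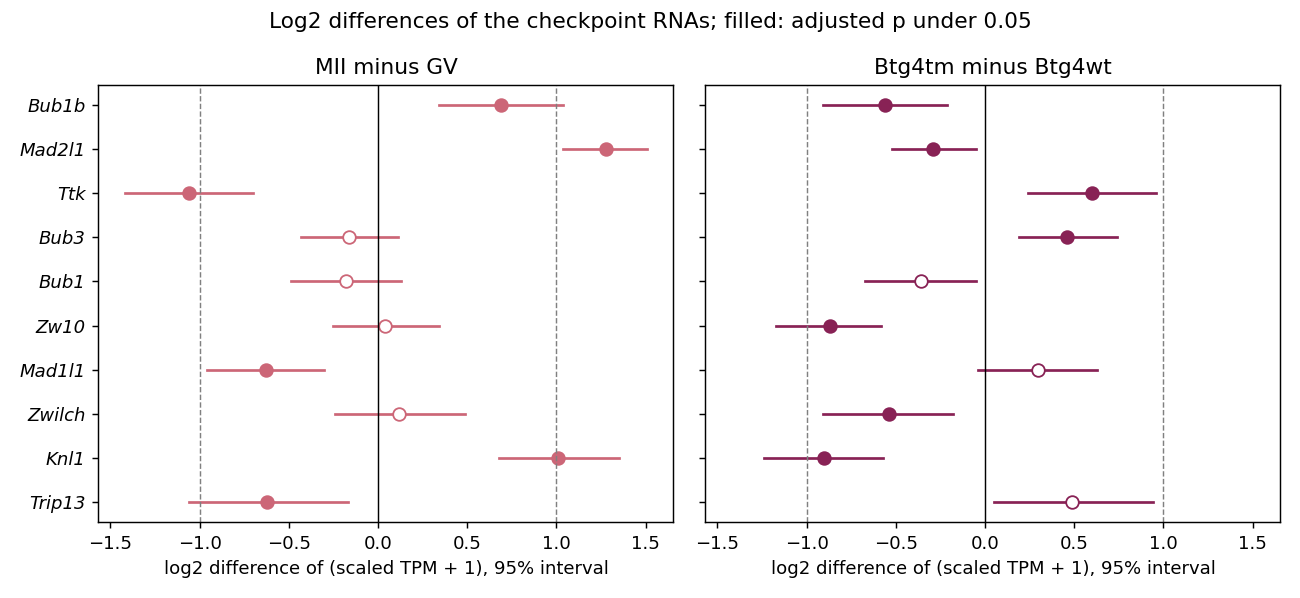
Log2 differences of (scaled TPM + 1) for the 10 genes, MII minus GV on the left and Btg4tm minus Btg4wt on the right, with 95% intervals; filled points passed an adjusted p under 0.05 and dashed lines mark a log2 difference of 1 in either direction. *Mad2l1* is at 1.28 on the left and -0.29 on the right, and *Ttk* at -1.06 and 0.6; scaled to mitochondrial RNA, *Mad2l1* would be at -0.93 and 0.8.

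Scaled to the mitochondrially encoded genes, the median of all genes moved by 0.88 between Btg4wt and Btg4tm, and the members that were lower had values above 0, of 0.8 for *Mad2l1*, 0.52 for *Bub1b*, 0.48 for *Zwilch*, 0.2 for *Zw10* and 0.14 for *Knl1*. Relative to that median, *Knl1* was at -0.74, *Zw10* at -0.68, *Zwilch* at -0.4, *Bub1b* at -0.36 and *Mad2l1* at -0.08, and *Ttk* at 0.8 and *Bub3* at 0.66. Under the main scaling *Mad2l1* was at -0.3 relative to the median. As between the stages, a single factor per library can change such relative values only through the added 1. The signs are therefore no separate support.

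Further contrasts place the injected oocytes beside the uninjected stages. In the main limma fit, no member passed between Btg4wt and MII, and neither did any of the 13968 genes (0%). The unadjusted p of 1 member was under 0.05, that of *Zw10* with a log2 difference of 0.3 (adjusted p = 0.42), beside 11.8% of all genes. The differences of the 10 lay between -0.22 and 0.3. Scaled to mitochondrial RNA, again no member passed, but 69 of all 13968 genes were called higher in Btg4wt and 0 lower. The median of all genes was 0.39 in that scaling. With a replicate block, 1 gene was called lower and no member passed. Between Btg4tm and GV, *Mad2l1* was higher (log2 difference 0.83, SE 0.1, adjusted p = 0.0052) and *Zw10* lower (-0.53, SE 0.13, adjusted p = 0.037), beside 7.66% and 3.73% of all genes. The *Mad2l1* difference passed in 16 of 17 alternative fits and failed when scaled to mitochondrial RNA (0.2, adjusted p = 0.41), whereas that of *Zw10* passed in 10 of 17.

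Whether the mutant's difference mirrored that of maturation was asked by adding the difference of Btg4tm from Btg4wt to that of MII from GV, which gives 0 where they are equal and opposite. The sum passed for 2 members, *Mad2l1* at 0.99 (SE 0.14, adjusted p = 0.016) and *Zw10* at -0.83 (SE 0.18, adjusted p = 0.035), beside 4.90% of all genes above 0 and 2.72% below. For *Mad2l1* the rise to MII was larger than the gap between the injected groups, and *Zw10*, at -0.87 between the injected groups, was at 0.04 between the stages. The sum passed in 10 of 16 alternative fits for *Mad2l1* and in 8 of 16 for *Zw10*, and in neither case with the spread estimated without a trend (adjusted p of 0.071 and 0.087). Scaled to mitochondrial RNA, the sum turned to -0.14 for *Mad2l1* (adjusted p = 0.68) and moved to -1.94 for *Zw10* (0.0022), and 8 of the 10 members passed. In that scaling the median sum of all genes was -1.02, and 6613 of all 13968 genes were called lower and 25 higher. Under the main scaling the sums of the other 8 members did not pass, and their intervals were wide: that of *Knl1* was 0.11 (95% interval -0.36 to 0.58) and that of *Ttk* was -0.46 (-0.96 to 0.05).

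**Figure D3:**
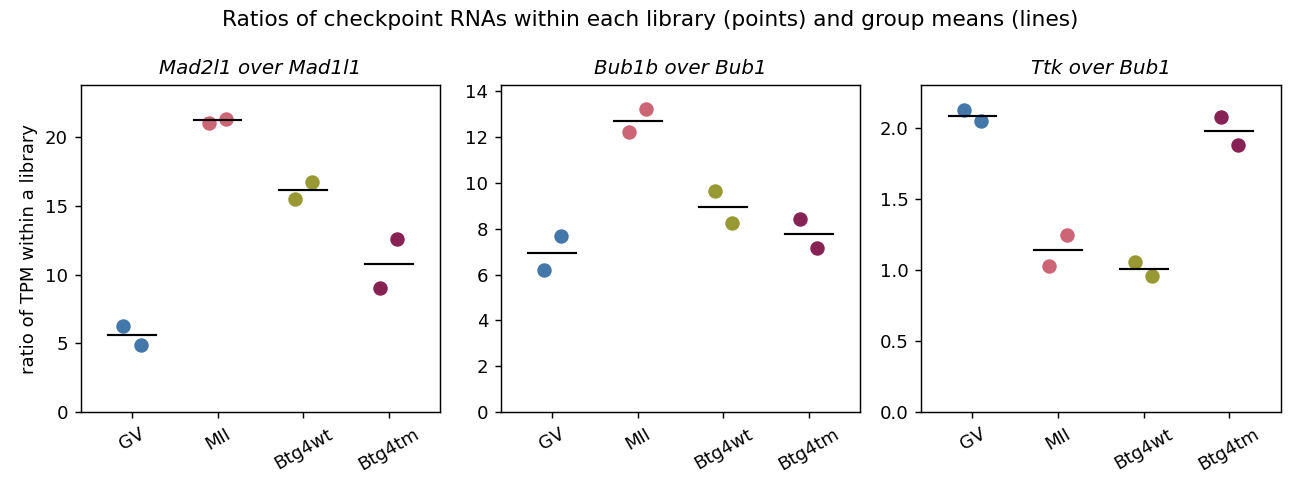
Ratios of TPM within each library (linear axes from 0) for *Mad2l1* over *Mad1l1*, *Bub1b* over *Bub1* and *Ttk* over *Bub1*; points are the 2 libraries of a group and lines their mean. *Mad2l1* over *Mad1l1* is 21 and 21.3 in MII, 15.5 and 16.7 in Btg4wt, 9.06 and 12.6 in Btg4tm and 6.25 and 4.91 in GV.

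The pairs in the plot of ratios were chosen after their values were seen, and their ratios are a description. *Mad2l1* over *Mad1l1* was 15.5 and 16.7 in Btg4wt and 9.06 and 12.6 in Btg4tm, between the GV and the MII libraries in each case. *Ttk* over *Bub1* was 1.06 and 0.959 in Btg4wt, near MII, and 2.08 and 1.88 in Btg4tm, near GV. *Bub1b* over *Bub1* was 9.63 and 8.24 in Btg4wt and 8.4 and 7.15 in Btg4tm, so these groups overlapped. *Knl1* over *Zw10* was 0.239 and 0.256 in GV, 0.527 and 0.475 in MII, 0.43 and 0.549 in Btg4wt and 0.385 and 0.572 in Btg4tm.

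Genes that work next to the members were taken from lists of kinetochore, corona, checkpoint output and centromere genes, 32 in all, of which 31 were tested; *Usp44* was under the filter. Between GV and MII, 14 passed higher and 6 lower, and 5 were called in each direction; over all genes the shares were 29.8% and 32.8% passing and 12.5% and 24.0% called. Called higher were *Nuf2*, *Cenpe*, *Tpr*, *Pttg1* and *Sgo2a*, and called lower *Spc24*, *Spc25*, *Zwint*, *Anapc15* and *Birc5*. Between Btg4wt and Btg4tm, 7 passed higher and 12 lower in Btg4tm, beside 26.2% and 23.3% of all genes. The 5 called higher were *Spc24*, *Spc25*, *Zwint*, *Anapc15* and *Birc5*, and the 1 called lower was *Sgo2a*, beside 18.1% and 7.94%. Apart from *Zwint*, *Tpr*, *Anapc15*, *Sgo2a*, *Cdc20*, *Aurkb* and *Aurkc*, which a written rule named, companions are named because of the values they showed. None passed between Btg4wt and MII in the main limma fit, where 5 had an unadjusted p under 0.05, beside 11.8% of all genes.

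In the outer kinetochore, the subunits of one complex moved apart. The NDC80 complex binds microtubules and is made of NDC80, NUF2, SPC24 and SPC25. *Ndc80* and *Nuf2* were higher in MII (log2 differences 0.86 and 1.03) relative to the median of all genes, whereas *Spc24* and *Spc25* were lower (-2.12 and -1.63). *Zwint*, the partner of KNL1, had the largest difference of all 31 genes, at 67.9 and 71.4 scaled TPM in GV, 7.05 and 8.54 in MII, 10.8 and 10.6 in Btg4wt and 66.8 and 65.8 in Btg4tm. Its log2 difference was -3.01 between GV and MII (SE 0.13, adjusted p = 9.5e-07) and 2.52 between Btg4wt and Btg4tm (SE 0.13, adjusted p = 3.6e-06). *Knl1* went the other way from its partner in both comparisons, higher in MII and lower in Btg4tm, except that it was lower in MII and above 0 in Btg4tm (0.14) when scaled to mitochondrial RNA.

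Among 7 genes of the corona and of MAD1-MAD2 recruitment, 5 passed higher in MII and 5 lower in Btg4tm, beside 29.8% and 23.3% of all genes, with median log2 differences of 0.7 and -0.56; scaled to mitochondrial RNA, *Tpr*, for one, turned to -0.98 and 0.5. *Tpr*, a nuclear pore protein that holds MAD1 in interphase, went from 18.8 and 21 scaled TPM in GV to 45.7 and 46.2 in MII (log2 difference 1.17, SE 0.12, adjusted p = 5.6e-05). It was at 47.9 and 50 in Btg4wt and 31.6 and 34 in Btg4tm (log2 difference -0.56, SE 0.12, adjusted p = 0.0044). *Cenpe*, the kinesin of the corona, was called higher in MII (log2 difference 1.02, SE 0.1, adjusted p = 4.4e-05). *Kntc1*, which encodes ROD, the third subunit of the RZZ complex, was at 6.7 and 6.97 in GV, 10.9 and 7.14 in MII, 11.2 and 8.79 in Btg4wt and 5.09 and 4.21 in Btg4tm. Its log2 difference did not pass between GV and MII (0.33, adjusted p = 0.24) and passed between Btg4wt and Btg4tm (-0.95, adjusted p = 0.0088). *Zw10* and *Zwilch* had the same outcomes, which do not by themselves show that the comparisons differed. The sum of the differences passed in limma for *Zw10*. It did not pass for *Kntc1* (-0.62, adjusted p = 0.26) or *Zwilch* (-0.42, adjusted p = 0.27).

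The genes of checkpoint output and silencing did not follow one pattern. *Cdc20*, the target of the inhibitory complex, was at 280 and 267 scaled TPM in GV and 294 and 300 in MII (log2 difference 0.12, SE 0.1, adjusted p = 0.33), and rose from 293 and 297 in Btg4wt to 448 and 384 in Btg4tm (0.49, SE 0.1, adjusted p = 0.0043). *Anapc15*, a subunit of the anaphase-promoting complex needed to clear the inhibitor, was at 35.3 and 35.8 in GV, 9.55 and 10.7 in MII, 12.4 and 8.67 in Btg4wt and 30.4 and 29.1 in Btg4tm (log2 differences -1.72 and 1.44, adjusted p = 5.8e-05 and 0.00025). *Mad2l1bp*, which encodes the MAD2-binding protein p31comet, passed higher in MII (0.96, adjusted p = 0.00061) and did not pass between the injected groups (-0.4, adjusted p = 0.054). *Pttg1*, which encodes securin, was the most abundant of the 31 genes, at 5800 and 4690 scaled TPM in GV and 15600 and 14700 in MII.

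Centromeric genes were mixed as well. *Sgo2a*, the shugoshin that protects cohesin in meiosis, was at 12 and 12.6 scaled TPM in GV, 32.7 and 30.1 in MII, 28.6 and 36.7 in Btg4wt and 14 and 14.6 in Btg4tm. Its log2 differences were 1.28 between GV and MII (adjusted p = 0.00014) and -1.13 between Btg4wt and Btg4tm (adjusted p = 0.00045), the latter -0.96 without Btg4wt replicate 2 and therefore not called. Scaled to mitochondrial RNA, the 2 differences were -0.83 and -0.09. *Aurkc*, the kinase of the chromosomal passenger complex in germ cells, passed higher in MII (0.54, adjusted p = 0.012), and *Aurkb*, its paralogue, did not (0.23, adjusted p = 0.1). *Birc5*, which encodes survivin, another subunit of that complex, was called in both comparisons (-1.17 and 1.08).

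**Figure D4:**
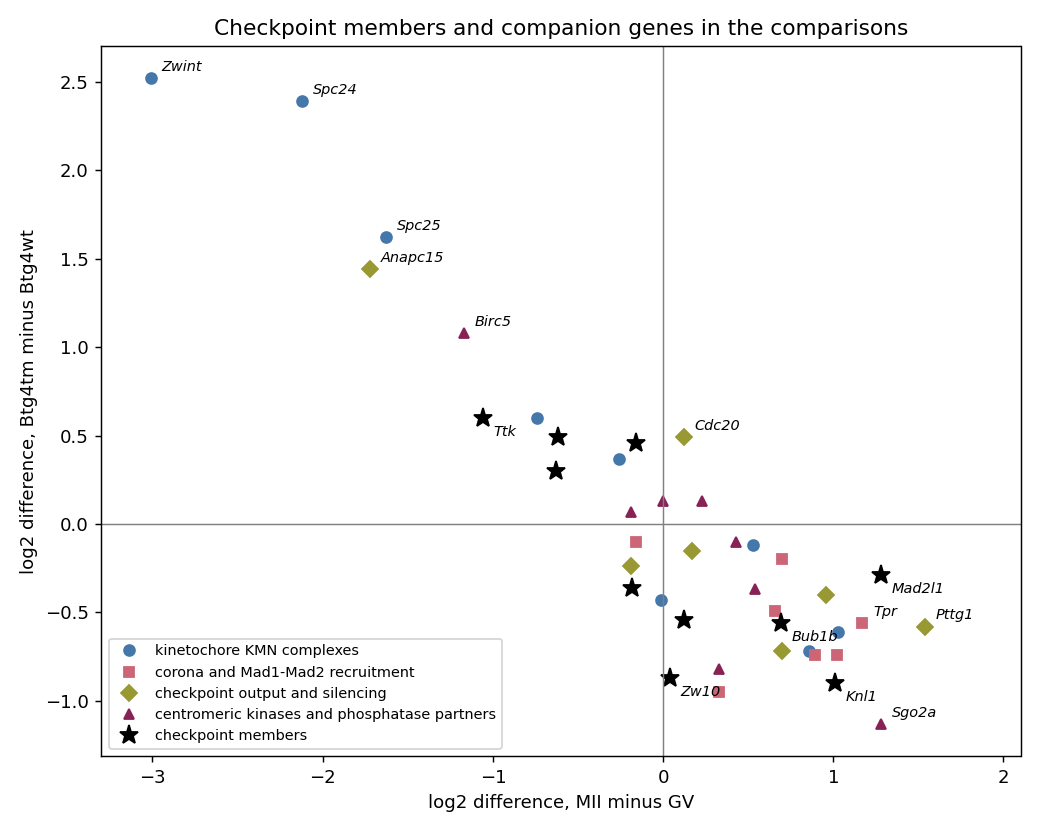
Log2 differences of the 10 checkpoint genes (stars) and of 31 companion genes by list (other symbols), with MII minus GV on the horizontal and Btg4tm minus Btg4wt on the vertical axis. *Zwint* lies farthest out at -3.01 and 2.52, *Sgo2a* is at 1.28 and -1.13, and *Cdc20* is at 0.12 and 0.49; when scaled to mitochondrial RNA, the median of all genes lies at -1.74 on the horizontal and 0.88 on the vertical axis.

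The genes whose levels over the 8 libraries were most like those of *Mad2l1*, *Ttk* and *Bub1b* were found among the 6881 tested genes that averaged 10 scaled TPM or more, by the Euclidean distance between log2(scaled TPM + 1) values centred on each gene's mean. Nearest to *Mad2l1* were *Ankra2* (distance 0.09), *0610033M10Rik* (0.12) and *Rdx* (0.15). Those nearest to *Bub1b* were *Fbxo34* (0.18), *Ppme1* (0.19) and *Tbc1d14* (0.24). To *Ttk* they were *Ap1m1* (0.28), *Abcd3* (0.28) and *Copg1* (0.3), the largest of these distances. No allowance was made for the spread between replicates, which adds to a distance. The libraries are shared by all genes, and the distances carry no test.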

How the data were processed

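The members and gene lists were chosen with earlier results of these data known. Oligo(dT)-primed cDNA of 15 oocytes per library was sequenced. According to the submitters' processing notes and the methods of the study, the authors trimmed reads with Trim Galore 0.6.10, aligned them to GRCm38 with HISAT2 2.2.0 and the GENCODE vM25 annotation, and counted exonic reads without strand with featureCounts 2.0.6. Reads of low mapping quality were removed, which takes reads from genes that have close copies. The authors deposited TPM per gene symbol, from which depth and counting error cannot be had. The listed TPM summed to 996199 to 998615 per library.

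From the deposited TPM, the 15962 genes in all 8 tables were scaled by the median of ratios (factors 0.948 to 1.11, divided into the TPM), and log2(scaled TPM + 1) was fitted with limma 3.58.1 in R 4.3.3 (eBayes with trend) over all 8 libraries for the 13968 genes that reached 1 TPM in 2 or more libraries. An adjusted p under 0.05 counted as passing, and a call also needed an absolute log2 difference over 1. The named genes were the 10 members, the called companion with the largest difference of each list in each comparison, *Cdc20*, *Aurkb* and *Aurkc*, and the 3 genes nearest to *Mad2l1*, *Ttk* and *Bub1b*. In simulated data for MII against GV, 84 of 100 genes changed by 1.5 and 99 of 100 changed by 3 on the log2 scale were called in the right direction, with 5 of 13353 unchanged genes called. Few genes were changed there, as many raised as lowered, all above a set level and in MII only. The simulation therefore cannot show the error rate where most genes shift, or for changes of 1 or less. The labels' protocol speaks of 3 samples per group, and 2 per group were analysed here. Alternatives were other scalings (TPM as deposited, quantile, mitochondrial), a pseudocount of 0.1, other filters, only the libraries compared, a replicate block, a call with no minimum fold change, eBayes without trend and leaving out each library. Of the tested genes, 13663 matched GENCODE M21 by symbol.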

Additional observations from a re-analysis of the deposited data

How the results depend on the processing

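Between GV and MII, 3 members were called. The count was 9 when scaled to the mitochondrially encoded genes, all lower, and 6 with no minimum fold change; leaving out 1 library gave 1 to 3, the lowest without GV replicate 1. Companion calls were 10, and 28 and 20 under the same settings. Of all 13968 genes, 7 were called higher and 11403 lower with mitochondrial scaling. With no minimum fold change, 4168 were called higher and 4575 lower. The members' median of -0.06 was -0.21 in TPM as deposited, 0.14 after quantile normalization and -2.25 with mitochondrial scaling, while the median of all genes moved to -0.13, 0.28 and -1.74. Between Btg4wt and Btg4tm, 0 members were called, against 2 after quantile normalization (*Zw10* and *Knl1*, lower), 4 with mitochondrial scaling (higher) and 7 with no minimum fold change; leaving out 1 library gave 0 to 1, the call being *Knl1* at -1.06 without Btg4tm replicate 2. Companion calls were 6, against 10 with mitochondrial scaling and 19 with no minimum fold change. Of all 13968 genes, 2055 were called higher and 1810 lower after quantile normalization. The numbers were 6089 and 69 with mitochondrial scaling, and 3666 and 3251 with no minimum fold change. The median of -0.32 was -0.52 after quantile normalization and 0.76 with mitochondrial scaling, and that of all genes -0.19 and 0.88. Between Btg4tm and GV, 0 became 1 with mitochondrial scaling and 2 with no minimum fold change. Over all genes, 38 were called higher and 2972 lower under the former setting, and 1070 and 521 under the latter. For the sum of the differences, 0 became 6 and 2 under those settings, and leaving out 1 library gave 0 to 1. Over all genes, the sum was called higher for 25 and lower for 6613 with mitochondrial scaling, and for 685 and 380 with no minimum fold change. All these counts need an adjusted p from limma.

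Signs reversed mainly under mitochondrial scaling. Between GV and MII, the value became -0.93 for *Mad2l1*, -1.52 for *Bub1b*, -2.14 for *Zw10*, -1.98 for *Zwilch*, -1.1 for *Knl1*, -0.98 for *Tpr*, -0.83 for *Sgo2a*, -2.09 for *Cdc20*, -1.92 for *Aurkb*, -1.67 for *Aurkc*, -0.8 for *Ankra2*, -1.01 for *0610033M10Rik*, -1 for *Rdx*, -1.54 for *Fbxo34* and *Ppme1* and -1.33 for *Tbc1d14*. Between Btg4wt and Btg4tm it became 0.8 for *Mad2l1*, 0.72 for *Bub1*, 0.52 for *Bub1b*, 0.2 for *Zw10*, 0.48 for *Zwilch*, 0.14 for *Knl1*, 0.5 for *Tpr*, 0.71 for *Aurkc*, 0.78 for *Ankra2*, 0.83 for *0610033M10Rik*, 0.76 for *Rdx*, 0.44 for *Fbxo34*, 0.54 for *Ppme1* and 0.47 for *Tbc1d14*. Quantile normalization gave 0.03 for *Bub1* and 0.01 for *Bub3* between GV and MII and -0.08 for *Aurkb* between the injected groups, and TPM as deposited gave -0.11 for *Zw10*, -0.03 for *Zwilch* and -0.04 for *Cdc20* between GV and MII. The cause of these reversals was not tested. Of 360 alternative values of single members, 319 kept direction and call, 21 gained a call, 5 lost one and 15 reversed.

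The replicate numbers did not pair the libraries: correlations of replicate differences between groups ran from -0.0539 to 0.0555. With a replicate block, 3 members were called between GV and MII and 0 between Btg4wt and Btg4tm, and the block changed no call of a member; *Mad2l1* no longer passed between the latter (adjusted p = 0.061) and *Bub1* did (0.026). Fits that leave out a library take the lone library of its group to vary like the others. TPM keep no depth, so the counting error of low genes such as *Trip13* is unknown.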

Other observations

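The cytoplasmic polyadenylation elements TTTTAT and TTTTAAT, searched in the last 100 bases of the main coding transcript, were also set beside the change of all 10254 genes with such a window, as a description with no test. Between GV and MII, the 2046 genes with an element had a median log2 difference of 0.48 (quartiles -0.26 and 0.93), and 21.2% were called higher and 11.8% lower. The 8208 genes without one had a median of -0.05 (quartiles -1.01 and 0.64), with 11.6% called higher and 25.1% lower. Between Btg4wt and Btg4tm, the medians were -0.21 with an element and 0.00 without, and 8.75% against 18.8% were called higher in Btg4tm. The shares called lower were 9.68% with an element and 8.5% without. *Bub1b*, at 0.69 and -0.56 in these comparisons, is among the genes with an element. *Mad2l1*, at 1.28 and -0.29, is counted among those without one, since its element lies at the end of its shorter transcript, and *Ttk*, at -1.06 and 0.6, holds none. Also without an element, *Knl1* was at 1.01 and -0.9, *Zw10* at 0.04 and -0.87, *Zwilch* at 0.12 and -0.54 and *Bub1* at -0.18 and -0.36. The last of those without one were *Bub3* (-0.16 and 0.46), *Mad1l1* (-0.63 and 0.3) and *Trip13* (-0.62 and 0.49). The 3′ ends in use in these oocytes were not measured here.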
